A study of Mus musculus with 6 samples.

Results

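The genes at the distal end of mouse chromosome 6 around Mrps35 were described in medullary thymic epithelial cells sorted from mice with and without Mbd1. Members were the genes of every array probe that the deposited coordinates place in the last stretch of chromosome 6, from 134.16 to 149.52 Mb, with the 4 probes of Atf7ip left out. This gave 118 of 21524 named genes, measured by 244 of the 41174 probes on the array, 35 of which had no gene symbol. The region was chosen by the signal of Mrps35, which an earlier look at the same comparison gave as one of few lower genes. Differences between the genotypes are therefore given as a description. The question was whether lower signals form one block along the chromosome. A possible segment from another mouse strain was the reason to ask, but such a segment need not lower every probe in it.

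Medullary thymic epithelial cells (mTECs) make proteins that are otherwise restricted to particular organs and so tolerise T cells in the thymus. The Mbd1 protein recognises DNA methylated at CpG and takes part in gene silencing. Mice that carry a knockout allele are often made in cells of one strain and bred to another. Segments of the first strain can then remain in the genome, and a probe can hybridise less well to a transcript with a sequence difference. No genotype or sequence of the mice was read here, and the labels do not name the strain, so strain was not tested.

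Cells came from mice 30 days old, MBD1 WT or MBD1 KO, and were gated as DAPI-, CD11c-, CD45-, Ly51-, EpCAM+ and class II+. Each genotype has 3 arrays, after the authors made 4 biological replicates per genotype and removed 1 of each for quality. Whether a replicate was 1 mouse or a pool is not given in the sources used here. How the allele was made is not stated either, and p-values measure the spread between these samples. Values are log2 signals in the 6 columns of the authors' matrix, named WT 1 to 3 and KO 1 to 3. Groups follow these column names, and every direction depends on them.

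By rank, 5 of the 6 columns equalled a scanner array, in 0 cases one with a matching title. Columns WT 2 and WT 3 equalled the arrays titled KO 1 and KO 3, columns KO 2 and KO 3 those titled WT 1 and WT 3, and column WT 1 that titled WT 2. Column KO 1 equalled none. Slide 1 thus held columns WT 1, KO 2 and KO 3, and slide 2 held WT 2 and WT 3. Mbd1 (chromosome 18, probe A_51_P143224), the targeted gene, read 8.83, 8.60 and 9.0 in the WT columns and 5.64, 5.61 and 5.60 in the KO columns. Probes never detected reached 5.50 to 5.67 (95th percentile per column), so Mbd1 was at or near background in the columns named KO.

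All 13 mTEC markers were measured, with a mean level of 13.18 to 13.20 in the WT columns and 13.13 to 13.21 in the KO columns. None of the marker lists had a gene at background in every column. All 9 thymocyte and T cell markers read higher on average in the KO columns, 5 of them without overlap between the groups. Of the 18452 named genes kept by the detection filter given below, 3.94% were higher without overlap and 51.6% read negative. Each gene was taken at its kept probe of highest mean. The mean level of the thymocyte and T cell list was 7.93 to 8.21 in WT and 8.54 to 8.67 in KO. The 6 dendritic cell and macrophage markers averaged 8.88 to 9.15 and 9.28 to 9.48. The 8 B and plasma cell markers averaged 7.98 to 8.25 and 8.20 to 8.67, and Jchain, which links immunoglobulin chains, differed most at 1.74 (SE 0.45). The 5 cortical epithelial markers had a median difference of 0.39. The part of these cells in the values below was not tested. In bulk RNA, fewer cells of a type and less RNA per cell cannot be told apart.

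Since Mbd1 binds methylated CpG, the promoters of separated members were read for the letters CG, which are the same on both strands. The promoters are from RefSeq (GRCm38.p6) and span 300 bases around each gene's start, taking the promoter richest in CG where a gene has several. They are shown 5′ to 3′ on the gene's strand with each CG in capitals. Hebp1 (chr6:135168166-135168465, minus strand) and Arntl2 (chr6:146805280-146805579, plus strand) were among the members lowest in the KO columns, and Bcat1 (chr6:145048763-145049062, minus strand) among the highest. Mrps35, Plcz1 and Klhl42 are named only.
Hebp1: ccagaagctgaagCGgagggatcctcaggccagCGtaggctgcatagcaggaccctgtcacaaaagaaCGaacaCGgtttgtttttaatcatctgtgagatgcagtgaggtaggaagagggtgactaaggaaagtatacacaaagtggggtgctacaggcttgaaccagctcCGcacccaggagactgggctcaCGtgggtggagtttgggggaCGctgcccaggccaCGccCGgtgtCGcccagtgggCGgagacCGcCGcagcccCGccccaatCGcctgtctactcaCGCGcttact
Arntl2: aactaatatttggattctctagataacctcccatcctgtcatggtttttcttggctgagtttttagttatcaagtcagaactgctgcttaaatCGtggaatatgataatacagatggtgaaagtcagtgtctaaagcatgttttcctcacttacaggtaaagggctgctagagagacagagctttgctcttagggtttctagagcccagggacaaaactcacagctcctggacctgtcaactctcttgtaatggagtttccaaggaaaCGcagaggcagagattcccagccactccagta
Bcat1: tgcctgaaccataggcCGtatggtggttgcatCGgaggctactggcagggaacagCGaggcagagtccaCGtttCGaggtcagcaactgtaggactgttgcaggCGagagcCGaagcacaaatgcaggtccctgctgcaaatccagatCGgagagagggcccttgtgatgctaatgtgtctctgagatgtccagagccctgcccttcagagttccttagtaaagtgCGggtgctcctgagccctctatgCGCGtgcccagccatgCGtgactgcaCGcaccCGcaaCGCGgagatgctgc

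Hebp1 held 17 CG, Arntl2 held 2 and Bcat1 held 16, so the low members of this set differ widely in these letters. Of the promoters of 27025 genes, 94.6% held at least 1 CG and 45.8% held at least 10, with a median of 8.0. Of the 22 named genes with a lower probe 15 matched the promoter table, and of the 9 with a higher probe 7 matched. The median count was 17.0 in both sets. Of the 74 other kept member genes 56 matched, with a median of 15.5. A comparison between these sets is void. Promoters could be read for 68.2%, 77.8% and 75.7% of their genes, under the 80% set as the least. These are counts of letters, and methylation was not measured here.

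Of the 244 probes, 190 (105 named genes) were kept, having a spot well above background in 3 or more of the 6 scanner files, and 35 were never well above background. A probe is called lower without overlap where all 3 KO columns lie below all 3 WT columns. This held for 24 of the 190 member probes (12.6%), with 4.07% of all 32235 kept probes called. The reverse held for 9 members (4.74%), with 4.07% of all kept probes called. Without the filter, 28 of all 244 member probes were lower (4.02% of all probes on the array) and 12 were higher (also 4.02%). The median difference between KO and WT over members was -0.09 on the log2 scale, with quartiles of -0.27 and 0.12, and 63.2% of members read negative. Over all kept probes the median was -0.01 and 51.8% read negative.

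Under limma with Benjamini-Hochberg adjustment over all kept probes (threshold 0.05), 1 member passed, Mrps35, with 0.0124% of all probes called lower and 0.164% called higher. At an unadjusted p under 0.05 there were 19 lower members (1.81% of all probes called) and 5 higher members (2.15% called). A difference of -1 or lower was read by 5 members, the probes of Mrps35, Plcz1, Arntl2, Hebp1 and Klhl42, with 0.0869% of all probes called (28 probes). Without Mrps35, 23 of 189 probes were lower and the median was again -0.09.

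**Figure D1:**
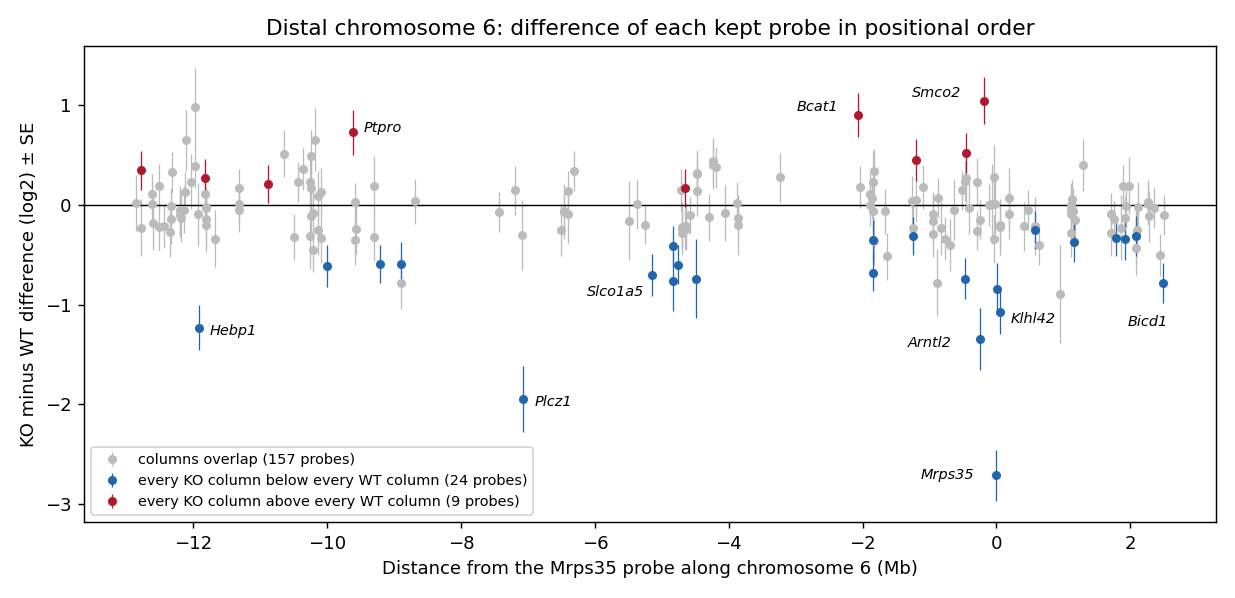
Difference between KO and WT (log2, ± SE of the fit) of each of the 190 kept probes against distance from the Mrps35 probe in Mb; blue and red mark probes whose groups do not overlap. The 24 lower probes are spread over the region with higher and overlapping probes between them, and Mrps35 is the lowest at -2.71.

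The lower probes did not form one unbroken block. Strain was not tested by this, since a segment need not lower every probe in it. Read in order, the longest run of lower probes held 4, those of Slco1a1, Slco1a5 (both probes) and Iapp between 141.87 and 142.26 Mb (positions as deposited, on a build that the sources used here do not name). Mrps35 with EG545893, at 147.02 to 147.03 Mb, formed a run of 2. No other run of lower probes was longer than 2, and all 9 higher probes stood alone. The longest run of negative signs was 10 probes, from Gm6288 at 147.43 Mb to Ergic2 at 148.14 Mb, and 1 of these 10, a Ccdc91 probe, was without overlap. From Mrps35 to Pthlh (147.02 to 147.21 Mb) 6 probes in a row read negative.

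In windows of 3 Mb counted from the boundary, each window held at least 1 lower probe. In the first 3 Mb, 1 of 52 probes was lower and 3 were higher, with a median of -0.02. From 3 to 6 Mb, 4 of 15 were lower and 1 higher, and the median was -0.30. From 6 to 9 Mb, 5 of 31 were lower and 1 higher, at a median of -0.11. Lower probes thus outnumbered higher ones past the first window. From 9 to 12 Mb, 3 of 23 were lower and 2 higher, with a median of 0.02. From 12 to 15 Mb, the window of Mrps35, 9 of 57 were lower and 2 higher, with a median of -0.15. In the last window 2 of 12 were lower and 0 higher, at -0.19.

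At the boundary itself Kap, the last named gene outside at 133.82 Mb, read 0.09. The probes of Etv6, the first inside at 134.23 Mb, read 0.34 and -0.23. The rest of chromosome 6 had 80 lower and 98 higher of 1539 probes. The higher ones were dense from 60 to 70 Mb (37 higher and 2 lower of 81 probes). From 70 to 80 Mb, 18 were higher and 7 lower of 108. Another stretch outside the distal region, 100 to 110 Mb, had 6 lower of 40 probes (15%) and a median of -0.20. Within 5 Mb of Mbd1 on chromosome 18, with Mbd1 left out, 16 of 80 probes were lower (20.0%) and 1 was higher. No test of these shares was made.

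**Figure D2:**
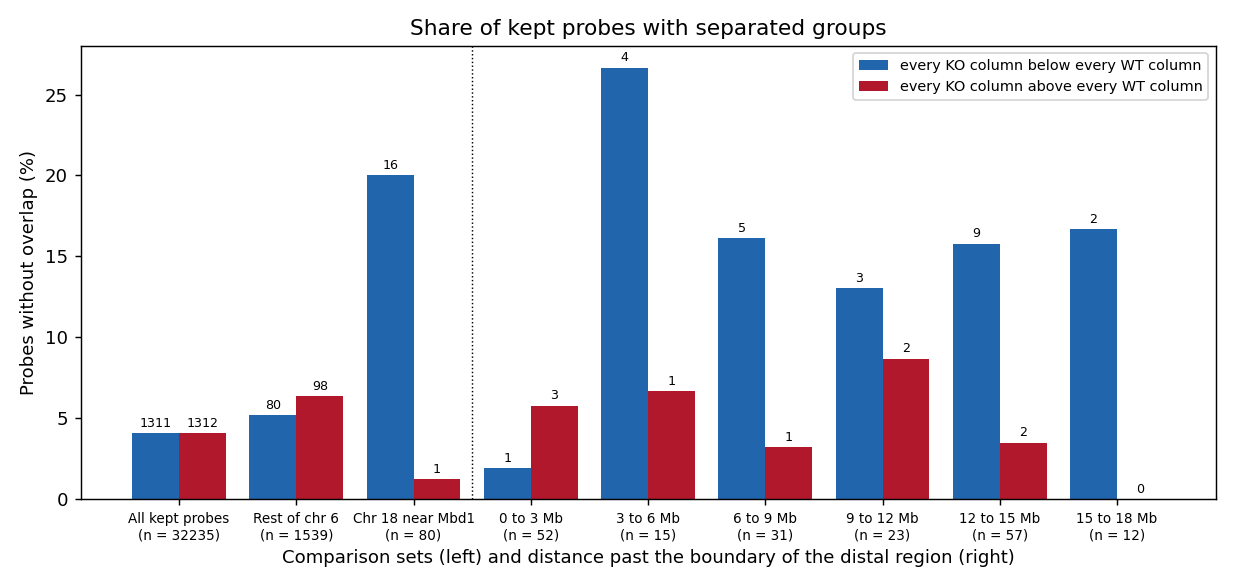
Share of kept probes (%) with every KO column below (blue) or above (red) every WT column, with counts over the bars, for all kept probes, the rest of chromosome 6, the 5 Mb around Mbd1, and 3 Mb windows past the boundary. Lower probes are 4.07% of all kept probes, 1.92% in the first window and 13.0% to 26.7% in the later ones.

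Lower members were found at all levels of signal. Of members with a mean level over 9, 16.4% were lower, against 3.69% of all probes at that level. Between 7 and 9 the shares were 10.5% and 4.14%, and under 7 they were 11.3% and 4.31%. The order of the columns within a group is given with no test. Column KO 2 was the lowest KO column for 13 of the 24 lower members (54.2%) and for 30.7% of all 1311 lower probes. Column KO 3 was the lowest for 5 members (20.8%) and for 49.7% of all lower probes. Column WT 1 was the lowest WT column for 12 of 24 members, against 30.1% of all lower probes.

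Mrps35, a protein of the small subunit of the mitochondrial ribosome (probe A_51_P110841, 147.02 Mb), read 12.85, 13.25 and 12.92 in columns WT 1 to 3 and 10.75, 9.80 and 10.35 in columns KO 1 to 3. The WT columns lay close together at a high level and the KO columns lay well below them. The means were 13.01 ± 0.22 and 10.30 ± 0.48 (SD, n = 3), a difference of -2.71 (SE 0.25, 95% interval -3.27 to -2.15), or 6.53-fold. With slide as a block the difference rests on slide 1, with 1 WT and 2 KO columns. It was then -2.77 (SE 0.34), with an adjusted p of 0.176 from limma. The authors' deposited table gives Mrps35 an FDR of 0.0137, the only member of 26 probes under 0.05 in that table.

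The scanner signals of Mrps35 by array title ran the other way. The processed intensity was 1021, 5070 and 1260 on the arrays titled WT 1 to 3 and 9377, 4680 and 10238 on those titled KO 1 to 3. The scanner also marked the Mrps35 spot as non-uniform on all 3 arrays titled KO and on none titled WT, so 3 arrays alone counted toward keeping Mrps35. The same marks fell on 120 probes of the array, 3 of them kept members (Mrps35, Iapp and H2aj). All 3 arrays titled KO lay on slide 2 and all 3 titled WT on slide 1, so title and slide cannot be told apart here. Outlier spots numbered 1046 to 1306 per array on slide 2 and 397 to 670 on slide 1. Columns WT 2 and WT 3 equalled by rank the marked arrays titled KO 1 and KO 3.

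A list of other genes, most of them named for the mitochondrial small subunit, read near 0 on balance. Whether each belongs to that subunit was not checked. All 32 genes of that list were kept, 14 read negative and 18 positive, 1 was lower without overlap (Mrps9, -0.76, SE 0.27), and the median was 0.00. At the same choice of 1 probe per gene, 4.30% of all named genes were lower, so this count is not above the background. Under limma 0 of the 32 passed, and 1 (Mrps9) had an unadjusted p under 0.05. The list ran from -0.76 to 0.30, with Mrps11 at 0.30, Mrps7 at 0.28 and Mrps33 at -0.33.

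The genes beside Mrps35 differed among themselves and among their probes. The nearest probe, 14.0 kb away from probe start to probe start, belongs to the gene model EG545893. It read 9.42, 10.15 and 9.81 against 9.10, 8.50 and 9.26. The groups did not overlap, and the difference was -0.84 (SE 0.26). Klhl42, a kelch-like adaptor of a ubiquitin ligase, lay 51.0 kb away by the same measure. With probe A_52_P93066 it read 9.98, 9.52 and 9.82 against 8.40, 8.67 and 9.01, again without overlap. That difference was -1.08 (SE 0.22), while its other probes read -0.23 and -0.21 with overlapping groups.

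On the other side of Mrps35, the Rep15 probe, for an effector of a Rab protein in membrane traffic, read 0.01. The probes of Ppfibp1, a liprin scaffold protein, read -0.35, 0.28 and 0.01. Smco2 (146.83 Mb) read 7.84, 7.51 and 7.69 against 8.53, 8.42 and 9.22, a difference of 1.04 (SE 0.24). It was the member with the highest difference and lay between Mrps35 and Arntl2, both low in the KO columns. Pthlh, a parathyroid hormone-like peptide, read -0.09 and 0.06 past Klhl42.

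Arntl2, a transcription factor of the circadian clock family (probe A_52_P61188, 146.78 Mb), read 7.44, 8.66 and 8.51 in WT and 7.05, 6.50 and 7.01 in KO. Column WT 1 lay nearer to the KO columns than to the other WT columns. The difference was -1.35 (SE 0.31), and -0.68 (SE 0.32) with slide as a block. Its second probe read -0.15 at a mean level of 6.01 in WT, not far above background.

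Plcz1, the sperm phospholipase that starts calcium waves in the egg (139.95 Mb), read 9.54, 10.61 and 10.96 in WT and 8.47, 8.07 and 8.73 in KO. The groups did not overlap, and column WT 1 was again the lowest of its group. The difference was -1.95 (SE 0.33), and -1.13 (SE 0.36) with slide as a block. Plcz1 has a second probe, A_52_P150260, which was never well above background and differed by -0.05, so the difference rests on 1 probe. The probes of its neighbour on one side, Pik3c2g (a lipid kinase), read -0.07, 0.14 and -0.30. Plekha5 on the other side of Plcz1 read -0.25 and -0.07. Aebp2, a partner of Polycomb complexes, read 0.13 and -0.10.

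Hebp1, a haem-binding protein (135.10 Mb), read 10.75, 10.94 and 11.04 in WT and 9.34, 9.61 and 10.08 in KO. All 3 KO columns lay below all 3 WT columns, which lay close together. The difference was -1.23 (SE 0.23), and -0.90 (SE 0.31) with slide as a block. It stood alone: Gprc5a, a receptor induced by retinoic acid, read 0.39 and 0.97 on one side, and Gprc5d read -0.10. On the other side the 4 probes of Fam234b read from -0.20 to 0.26, those of Gsg1 read -0.04 and -0.02, and Emp1 read -0.34.

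**Figure D3:**
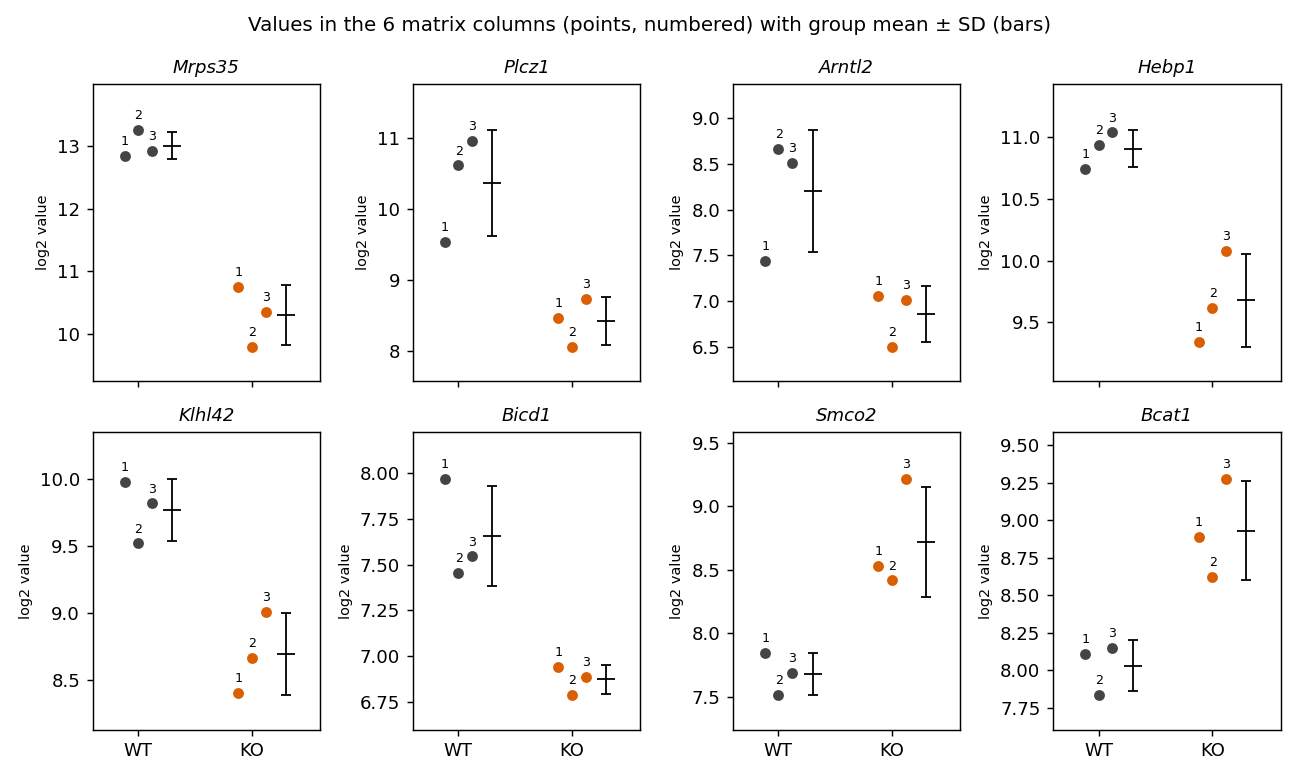
Log2 value in each matrix column (points, numbered as in the column names) with the group mean ± SD (bars, n = 3) for 8 members whose groups do not overlap. Column WT 1 lies nearest to the KO columns for Plcz1 and Arntl2, and Smco2 and Bcat1 are higher in all 3 KO columns.

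By role, each gene taken at its kept probe of highest mean, the enzymes and mitochondrial proteins read negative in 10 of 11 genes, with a median of -0.24 against -0.01 over all 18452 named genes. Of those, 51.6% read negative, 4.30% were lower without overlap and 3.94% higher, the background for each role count here. Of the 11 enzymes and mitochondrial proteins, 4 were lower (Mrps35, whose signal chose the region, Hebp1, Dera and Etfrf1) and 1 higher (Bcat1). Dera, an aldolase that breaks down deoxyribose phosphate, differed by -0.60 (SE 0.19), and Etfrf1, a regulator of the electron transfer flavoprotein, by -0.35 (SE 0.20), or -0.23 without column KO 2. Bcat1, the cytosolic transaminase of branched-chain amino acids, read 8.11, 7.83 and 8.15 in WT and 8.89, 8.62 and 9.28 in KO. The groups did not overlap, with a difference of 0.90 (SE 0.22), and its second probe read 0.17. Ldhb, a lactate dehydrogenase subunit of high level, read -0.11, and both probes of Mgst1, a glutathione transferase of membranes, read negative, at -0.60 without overlap (-0.38 without column KO 1) and at -0.78 with overlap.

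Transporters and channels had 9 of 10 genes kept, 7 negative and 3 lower, with a median of -0.17, beside 51.6% negative and 4.30% lower over all genes. The organic anion transporters form a cluster of Slco1 genes here. Slco1a5 read 8.51, 8.80 and 8.50 in WT and 8.02, 8.39 and 7.09 in KO with its probe A_52_P542496, a difference of -0.77 (SE 0.30), and KO 3 lay far below the other KO columns. Without column KO 3 it was -0.40, and that of its second probe was -0.27. The second probe differed by -0.41 (SE 0.20) over all columns and Slco1a1 by -0.70 (SE 0.21), both without overlap. The other kept members of the cluster read -0.20 (Slco1a4), 0.00 (Slco1b2) and -0.16 (Slco1c1). These sequences are alike, so signals of the cluster's members are uncertain where probes can bind a close copy. Kcnj8, a potassium channel subunit, read 7.40, 5.64 and 5.67 in WT and 5.54, 5.40 and 5.54 in KO. Its difference of -0.74 (SE 0.39) rests on column WT 1 (-0.16 without it), and all 3 KO columns were at background.

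Growth and signalling genes had 16 of 18 kept, 12 of them negative, with none separated at the probe of highest mean and a median of -0.16. Ptpro, a receptor tyrosine phosphatase, had 1 probe at 0.72 (SE 0.22) without overlap and 1 at 0.02. Outside that list, Rerg, a Ras-like growth inhibitor, read -0.61 (SE 0.21) and Fgfr1op2, known as a fusion partner of a growth factor receptor, read -0.74 (SE 0.20) and 0.24 with its probes. Bicd1, a dynein adaptor, read 7.97, 7.45 and 7.55 in WT and 6.94, 6.79 and 6.89 in KO, a difference of -0.79 (SE 0.20), and its other probe read -0.50.

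Transcription and chromatin genes split evenly, with 5 of 10 negative, 1 lower (Arntl2) and 2 higher, and a median of 0.00, beside 4.30% lower and 3.94% higher over all genes. The higher genes were Bhlhe41, a repressor of the circadian clock, at 0.45 (SE 0.21), and Etv6, an ETS family repressor, at 0.34 (SE 0.20). Protein traffic genes had 8 of 9 kept, 2 negative, 1 lower (Ccdc91, -0.26, SE 0.19) and 2 higher (Tm7sf3, 0.52, SE 0.20, and Golt1b, 0.17, SE 0.19), with a median of 0.07. Golt1b read 0.07 without column WT 1 and Ccdc91 -0.15 without column KO 2. Of 4 genes of RNA and translation, 2 were negative and Caprin2, an RNA-binding protein, was lower at -0.33 (SE 0.18). Of 3 germ cell genes only Plcz1 was kept. Antigens of other organs, the class of gene for which mTECs are known, had 4 of 8 negative and a median of 0.04. Iapp, the amyloid peptide of pancreatic islets, differed by -0.60 (SE 0.19) without overlap and was the only separated gene of that list.

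The remaining separated probes were small differences. The lower ones were Rassf8 (-0.32), 4732416N19Rik (-0.37), Dennd5b (-0.35) and Etfbkmt (-0.32). The higher ones were Fam234b (0.26) and Grin2b (0.20), the latter near background in WT. Without column KO 2 Grin2b read 0.09 and Etfbkmt -0.21, and without column WT 3 Dennd5b read -0.19.

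Probes of one gene often differed in whether the groups overlapped. Of 46 members with 2 or more kept probes, 12 had a lower probe and in 1 of these (Slco1a5) every kept probe was lower, or 8.33%. Over all 619 such genes with a lower probe, 42 had every probe lower, or 6.79%. Every kept probe read negative in Slco1a5, Mgst1, Rassf8, Arntl2, Klhl42, Ccdc91, 4732416N19Rik, Etfbkmt and Bicd1. The other members with a lower probe, Fgfr1op2 and Dennd5b among them, also had a probe that read positive. How often signs agree over all genes was not counted. A further 8 members had a higher probe and 0 had every probe higher. Over all kept probes 4.07% were higher. The share of all genes with a higher probe was not counted, so these 8 have no matching background. The spread between the probes of a gene had a median of 0.30 in the region and 0.21 over 7347 genes. The plot of probes by gene shows how far the separated probes of Arntl2, Klhl42 and Fgfr1op2 lay from the others of the same gene.

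**Figure D4:**
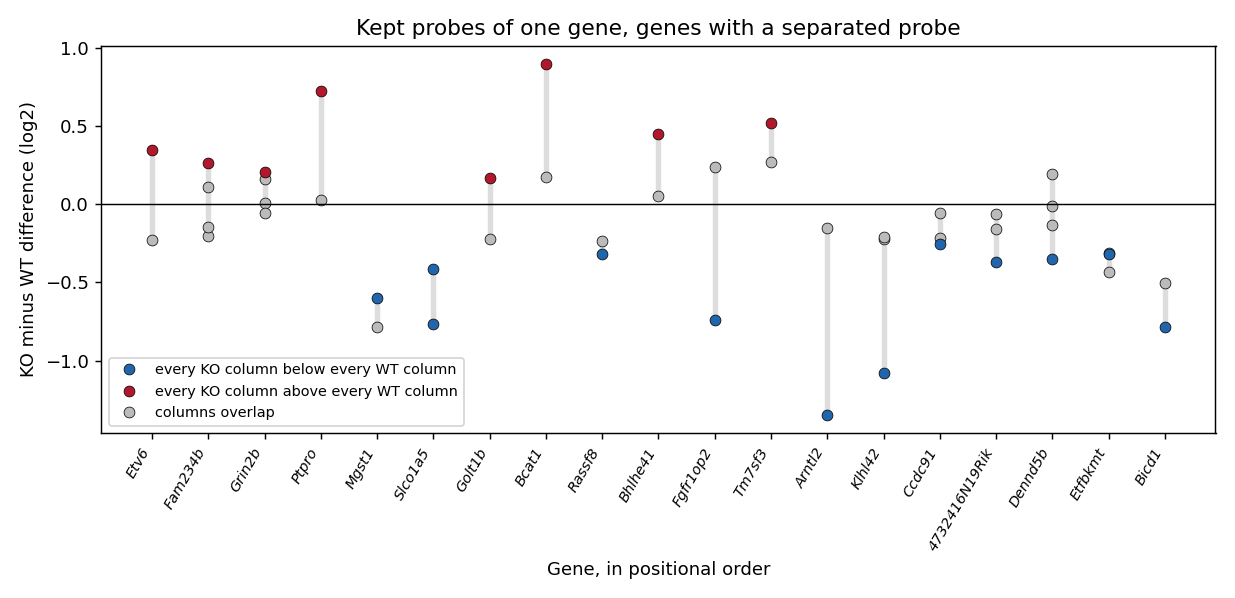
Difference between KO and WT (log2) of every kept probe of the member genes with 2 or more kept probes and at least 1 separated probe, 1 gene left out, joined by a grey bar and in positional order. Only Slco1a5 has every probe lower, and Arntl2 spans -1.35 to -0.15.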

How the data were processed

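Log2 values per probe were taken from the authors' deposited matrix, in 6 columns named by genotype; how they were scaled is not given in the sources used here. This deposited matrix also holds the authors' ratio (fold), p-values and a log-odds score; only the log2 ratio and p-values were used. The deposited scanner files hold intensity per spot from Agilent Feature Extraction: the version is 10.7.3.1 per the file headers, whereas the submitters' processing notes name 10.6. RNA was amplified and labelled with Cy3 for 1-colour arrays, per the labels' protocols. The matrix medians were 7.13 to 7.14, and 0 numeric columns were unmapped. In rank, 5 of the 6 columns equalled spot signals without background subtraction.

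Each array has 41174 probes, 72.6% to 79.4% of them well above background and 0 spots saturated; the number of arrays limits the precision. Replicated spots were averaged. Outlier spots were left out for the detection filter and the processed-intensity alternative. The rank match, the normexp alternative and the printed scanner intensities did not leave outlier spots out. The log2 values are as deposited, and no spot was removed from them here. Probes well above background on at least 3 of 6 arrays were kept (32235). For 32833 probes the Entrez ID gave the name, for 62 the accession and for 2014 the symbol in the matrix, while 6265 had none. Group differences were fitted in R 4.3.3 with limma 3.58.1 (lmFit, eBayes) over all kept probes and adjusted by Benjamini-Hochberg (threshold 0.05); the script was tested on simulated data. With 3 columns per group an exact permutation test of 1 value cannot go below 0.1. The 2 coordinate columns of the matrix did not match (16.2% of 27130 probes inside the gene span), so no build is named.

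The members, lists and rules were chosen with earlier results of these data known. Named were Mbd1, Mrps35, Plcz1 and Hebp1, up to 12 separated genes per direction by size, neighbours of Mrps35, Plcz1 and Hebp1, the genes at the boundary and 4 genes of the mitochondrial list; further members stand for their role list or complete the separated probes. 1 member gene is counted but not reported here. Alternatives were array titles in place of column names, background correction, detection filters, 1 value per gene, moderation, scaling, blocks, left-out columns and window width. The normexp alternative used the median spot signal, since the mean was not in the files.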

Additional observations from a re-analysis of the deposited data

How the results depend on the processing

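Every direction depends on the grouping. Shares in brackets are those over all probes or genes of the same setting. With scanner files under their titles and processed intensity, 8 of 186 members were lower (2.40%) and 15 higher (8.14%), the latter near the background at 8.06% of members, 0 passed (17 at an unadjusted p under 0.05 in limma), the median was 0.11, as over all probes (0.11), and Mbd1 read 1.59. With normexp and quantile normalization under the titles, 11 were lower (3.87%) and 10 higher (5.16%), 0 passed (12 unadjusted), the median was 0.0086, Mbd1 read 0.85 and Mrps35 read 1.73; 27 of 31 and 29 of 32 named probes turned sign. With slide as a block (5 columns, in effect 1 WT against 2 KO) 36 were lower (8.62%) and 14 higher (8.18%), 0 passed (21 unadjusted), the median was -0.13, Mbd1 read -3.22 (limma adjusted p = 0.0732) and Mrps35 -2.77 (adjusted p = 0.176); of 32 named probes 12 moved and 0 turned. With 1 probe per gene 13 of 104 genes were lower (4.30%) and 6 higher (3.94%). With the mean over probes 21 of 105 were lower (4.86%) and 4 higher (4.40%); of 31 named probes 10 moved and 1 (Golt1b) turned, to -0.03. With trend and robust moderation 2 passed, Plcz1 beside Mrps35 (limma adjusted p = 0.0373 for Plcz1). Same-numbered columns did not deviate together (correlations -0.29, -0.18 and -0.33). Columns WT 2 and WT 3 lay on another slide than KO 2 and KO 3, so this check cannot exclude pairing. With the replicate block 2 passed, again Plcz1 beside Mrps35 (limma adjusted p = 0.0114 for Plcz1). Leaving out 1 column in turn gave 29 to 39 lower (7.60% to 12.1%), 13 to 24 higher (7.19% to 10.9%, near the members' own 6.84% to 12.6%) and 1 to 3 passing, with Mrps35 from -2.93 to -2.46. Fewer columns separate more easily. Plcz1 passed without WT 1 (-2.36) or KO 3 (-2.10), Arntl2 without WT 1 (-1.73) and Hebp1 without KO 3 (-1.43). Mrps35 was not tested where all 6 arrays had to be above background, since its spots on 3 arrays were marked; Plcz1 passed there (limma adjusted p = 0.0422). Windows of 2 Mb also held at least 1 lower probe each, but that from 2 to 4 Mb had 2 lower and 2 higher with a median of 0.02, so lower probes outnumbered higher ones from 4 Mb on. The causes of these shifts were not tested.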
